A study of Mus musculus with 2 samples.

Results

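The D cyclins (Ccnd1, Ccnd2, Ccnd3), the E cyclins (Ccne1, Ccne2) and the CDK inhibitors of the CIP/KIP family (Cdkn1a, Cdkn1b, Cdkn1c) and of the INK4 family (Cdkn2c, Cdkn2d) were followed in NE4C cells with and without HTL. These 10 genes were picked by symbol, and the table of 16803 genes held all 10. NE4C is an established mouse neural stem cell line that grows as an undifferentiated neuroepithelial culture. It was derived from embryos that lack p53, a limit for any reading of the p53 target Cdkn1a. Both cultures were grown in Eagle MEM on a surface coated with poly-L-lysine. The control was the normal culture. The other received HTL, homocysteine thiolactone, a ring form of homocysteine that reacts with lysines in proteins. The dose and duration used for these libraries are not given in the sources used here. In the study's protocol for homocysteine modification of proteins, NE4C cells were starved in low serum before HTL was added in complete medium. Whether the HTL culture or the control sequenced here was starved is not stated. The cultures may therefore differ in serum as well as in HTL, and the part of serum in the differences below was not tested.

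Each condition had 1 library of total RNA, with 10350668 estimated reads in the control and 9102073 after HTL. No difference below has a replicate check. The intervals and tests cover the counting error between these 2 libraries, and since the sources used here describe no molecular identifiers, several reads may stem from 1 molecule. Markers of neural stem cells were present, with Nes at 1617 and 1365 reads and Sox2 at 894 and 285 reads (control and HTL). Not all were, since Pax6 of the same list had 69 and 66 reads and Fabp7 only 2 and 2. Of other cell types, the 3 glia markers that the table held had 195 and 188 reads, nearly all from Mbp (182 and 186), with Gfap at 2 and 0. The 3 blood and microglia markers that the table held summed to 28 and 20 reads. The summed FPKM of the 10 stem cell markers was 229 and 157, and 4 of the 9 tested, Sox1, Sox2, Sox3 and Vim, were called lower after HTL, where 7.98% of all genes were. The shifts by other scalings given below leave Vim (log2 ratio -1.01) short of the call. Prom1 of the same list went the other way (443 and 555 reads, log2 ratio 0.51) without a call. Of the 4, Sox1 had the lowest log2 ratio, -1.78 (95% interval -2.86 to -0.88, 48 and 12 reads). Neuron markers were present too, led by Stmn2 (309 and 403 reads) and Tubb3 (296 and 396 reads). They summed to 37.4 and 51.8 FPKM, with Dcx called lower (88 and 29 reads). The fibroblast and mesoderm markers that the table held summed to 10.37 and 5.93 FPKM, of which T made up 8.88 and 4.29. T was called lower (188 and 80 reads, log2 ratio -1.04) but was short of the call after the same shifts. Col1a1 and Col1a2 of that list went the other way without a call, each with 12 and 25 reads (log2 ratio 1.21). The part of these cell type markers in the results below was not tested.

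Cyclins of the D type are the sensors of growth signals. They bind CDK4 or CDK6 and start the phosphorylation of the retinoblastoma protein, which frees E2F transcription factors. E2F in turn switches on the E cyclins, which bind CDK2 and carry the cell into S phase. INK4 proteins block CDK4 and CDK6 by keeping the D cyclins off, whereas CIP/KIP proteins bind whole cyclin-CDK complexes and stop CDK2 above all. In the neural tube, the balance of these proteins sets how long a progenitor stays in G1 and when it leaves the cell cycle.

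Of the 10 genes, 9 had at least 10 reads over both libraries and were tested. A gene was called when the exact binomial test on its reads gave an adjusted p of at most 0.001 and its log2 ratio of HTL over control was at least 1 in size. One gene, Cdkn2d, was called, and it was higher. None was called lower. Among all 13442 genes tested, 10.8% were called, 2.81% higher and 7.98% lower, so 1 of 9 is close to the background. Without the fold cutoff, 3 of the 9 genes passed the adjusted p, namely Cdkn2d (higher) and Ccnd1 and Ccne2 (lower), and 38.6% of all genes did so. The median log2 ratio of the 9 genes was -0.050, beside -0.14 for all genes tested. Scaling by TMM, the median of ratios or the upper quartile shifted log2 ratios up by 0.13, 0.14 and 0.093, respectively, and by slightly less for genes with few reads. With TMM, 552 genes were called higher and 800 lower, against 378 and 1072 with library totals. Differences are therefore also given relative to the median gene.

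**Figure D1:**
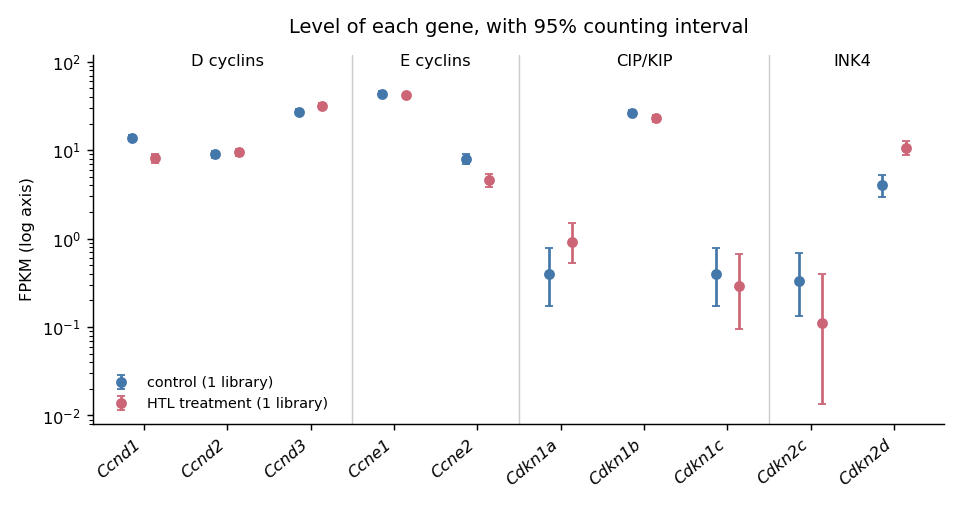
Level of each of the 10 genes in the control library (blue) and the HTL treatment library (red), in FPKM on a log axis, with 95% counting intervals and 1 library a condition. Ccne1, Ccnd3 and Cdkn1b sat above 20 FPKM in both libraries, and Cdkn1a, Cdkn1c and Cdkn2c sat below 1 FPKM in both.

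Levels were compared between genes in FPKM, which corrects for transcript length. In the control library Ccne1 stood highest at 43.4 FPKM, followed by Ccnd3 (27.2) and Cdkn1b (26.5), whose intervals overlapped. Ccnd1 (13.8) came next and then Ccnd2 (8.99) and Ccne2 (7.94), which again overlapped. Cdkn2d had 4 FPKM. Cdkn1a, Cdkn1c and Cdkn2c closed the order at 0.40, 0.40 and 0.33 FPKM and could not be ranked among themselves. After HTL the first 3 places were the same, and all 3 intervals were apart. The middle of the order was not. Cdkn2d moved from rank 7 to rank 4, beside Ccnd2 and Ccnd1, with overlapping intervals between Cdkn2d and Ccnd2 and between Ccnd2 and Ccnd1. Ccne2 took the place below them, and the same 3 inhibitors stayed at the bottom.

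The D cyclins did not move together. Ccnd1 encodes cyclin D1 and responds to mitogens, Wnt and hedgehog signals. It had 547 reads in the control library and 282 after HTL. Its level was 13.8 FPKM (95% interval 12.68 to 15.02) and 8.08 FPKM (7.16 to 9.08), so the intervals did not meet. The log2 ratio of HTL over control was -0.77 (-0.98 to -0.56, the exact Clopper-Pearson interval), a fold of 0.587 (0.506 to 0.678), with an adjusted p of 7.89e-13 in the exact binomial test. Relative to the median gene it was -0.63. Ccnd1 was thus lower, but short of the call. Ccnd1 is a known target of hedgehog signalling, which the study followed in these cells, so its direction is not offered as independent evidence. Ccnd1 (gene 12443) lies on chromosome 7 of NCBIM37, which is the mm9 build of the labels, from 152115836 to 152125774 on the minus strand. Its exons overlap those of Oraov1 on the opposite strand. The reads of Oraov1 were 77 and 44, with a log2 ratio of -0.62 (-1.19 to -0.069). Whether strand was used in counting is not given in the sources used here, and the part of Oraov1 reads in the value of Ccnd1 was not tested.

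Ccnd2 encodes cyclin D2, which is typical of cycling neural progenitors. Its 543 and 503 reads gave 8.99 FPKM (8.25 to 9.78) and 9.45 FPKM (8.64 to 10.3), which overlap. The log2 ratio of 0.075 (-0.10 to 0.25) did not pass the test (adjusted p = 0.498, exact binomial test). Ccnd2 (gene 12444) lies on chromosome 6, 127075797 to 127101066, minus strand. Ccnd3 encodes cyclin D3, the D cyclin with the highest FPKM in both libraries. It had 561 and 574 reads, or 27.2 FPKM (25.0 to 29.6) and 31.6 FPKM (29.1 to 34.3). Its log2 ratio was 0.22 (0.048 to 0.39), with an adjusted p of 0.0223 by the exact binomial test. Under the other scalings the adjusted p of Ccnd3 in that test was between 0.000112 and 0.00073, with log2 ratios of 0.31 to 0.35. Its position relative to the level of 0.001 therefore rested on the scaling, and it was short of the fold cutoff under each one. Ccnd3 (gene 12445) lies on chromosome 17, 47642000 to 47736632, plus strand. Its exons overlap Bysl on the opposite strand, for which 1352 and 986 reads gave a log2 ratio of -0.27 (-0.39 to -0.15). Bysl thus had more reads than Ccnd3 in both libraries, and the part of Bysl reads in the value of Ccnd3 was not tested.

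Ratios within a library do not depend on scaling, and 8 pairs within families were compared in this way. They can still carry a trend with transcript length. Genes of a transcript length similar to Ccnd3, Ccnd1 and Ccnd2 had median log2 ratios of -0.049, -0.17 and -0.28, respectively. The reads of Ccnd1 relative to Ccnd2 were lower after HTL by 0.84 on the log2 scale (change of -0.84, 95% interval -1.12 to -0.57). Relative to Ccnd3 the change was -0.99 (-1.26 to -0.72). The ratio of Ccnd2 to Ccnd3 changed by -0.14 (-0.39 to 0.10), an interval that holds 0. With those medians subtracted, the log2 ratios were 0.36 for Ccnd2, 0.27 for Ccnd3 and -0.60 for Ccnd1. The order of Ccnd2 and Ccnd3 was then reversed, and Ccnd1 stayed below both. Ccnd1 was 1.54 times the FPKM level of Ccnd2 in the control library and 0.855 times after HTL. Both intervals for Ccnd1 leave 0 outside, so the change of its ratio to either other D cyclin was larger than the counting error. Of the FPKM of the family, Ccnd1 made up 27.6% in the control and 16.4% after HTL, while Ccnd3 went from 54.4% to 64.3% and Ccnd2 from 18.0% to 19.2%. As a share of the D cyclin reads, Ccnd1 was 33.1% (30.9 to 35.5, exact Clopper-Pearson, 1651 reads) and 20.8% (18.6 to 23.0, 1359 reads). The summed FPKM of the 3 genes was 50.04 and 49.16. The log2 ratio of their summed reads, -0.095 (-0.20 to 0.0091), turned positive with TMM (0.035) and with the median of ratios (0.041) and was -0.0020 with the upper quartile.

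**Figure D2:**
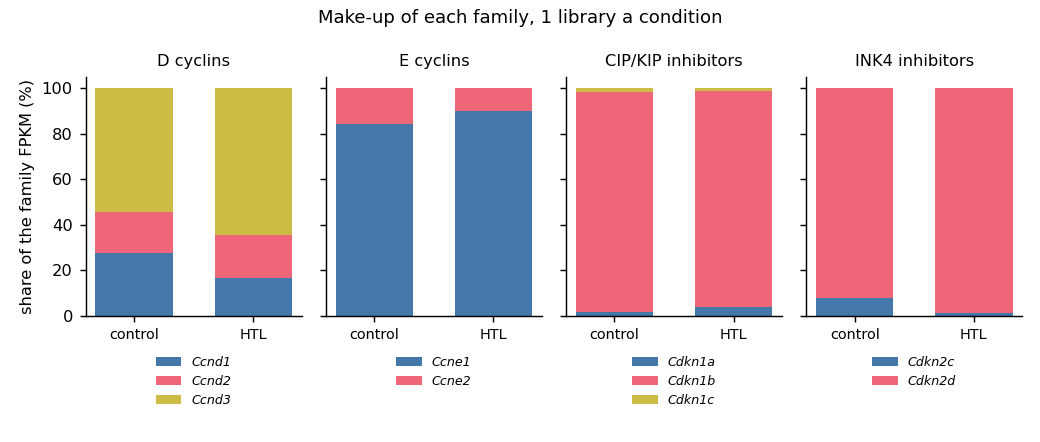
Share of each gene in the summed FPKM of its family (percent), in the control and the HTL treatment library, 1 library each. The Ccnd1 share of the D cyclins was 27.6% and 16.4%, the Ccne2 share of the E cyclins 15.5% and 9.87%, and the Cdkn2d share of the 2 INK4 genes 92.4% and 99.0%.

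The E cyclins differed in the same way from each other. Ccne1 encodes cyclin E1, the partner of CDK2 at the entry into S phase. It had 908 and 771 reads, 43.4 FPKM (40.6 to 46.3) and 41.8 FPKM (38.9 to 44.9). Its log2 ratio of -0.050 (-0.19 to 0.090; adjusted p = 0.572, exact binomial test) had an interval around 0, and it was above 0 under each other scaling (0.043 to 0.086). Ccne2 encodes cyclin E2, which also binds CDK2. Its 250 and 127 reads gave 7.94 FPKM (6.99 to 8.99) and 4.58 FPKM (3.82 to 5.45), which do not overlap. The log2 ratio was -0.79 (-1.11 to -0.48), a fold of 0.579 (0.463 to 0.718), with an adjusted p of 1.08e-06 in the exact binomial test. Relative to the median gene it was -0.65. Ccne2 was lower but short of the call, with a log2 ratio close to that of Ccnd1.

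The ratio of Ccne1 to Ccne2 in FPKM was 5.47 in the control and 9.14 after HTL. In reads it changed by 0.74 on the log2 scale (0.40 to 1.09). Ccne1 took 84.5% of the E cyclin FPKM in the control library and 90.1% after HTL. Both genes carry the same orthology entry in the table, and both had whole-number reads, as did all 10 genes. Ccne1 (gene 12447) lies on chromosome 7, 38883003 to 38892553, minus strand. Ccne2 (gene 12448) lies on chromosome 4 from 11118498 to 11131926 on the plus strand, and its exons overlap Ints8 on the opposite strand. Ints8 had 710 and 524 reads, with a log2 ratio of -0.25 (-0.42 to -0.088), and its part in the value of Ccne2 was not tested. The summed E cyclin reads had a log2 ratio of -0.18 (-0.31 to -0.054), which came to -0.051 with TMM, -0.045 with the median of ratios and -0.088 with the upper quartile.

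Among the CIP/KIP inhibitors, Cdkn1b made up nearly the whole level. It encodes p27, which holds CDK2 complexes inactive in cells that leave the cycle and is a known regulator of neural progenitor number. Cdkn1b had 661 and 503 reads, or 26.5 FPKM (24.5 to 28.6) and 22.9 FPKM (20.9 to 25.0). The log2 ratio was -0.21 (-0.38 to -0.039), with an adjusted p of 0.0281 in the exact binomial test that did not pass. Relative to the median gene it was -0.071. Cdkn1b (gene 12576) lies on chromosome 6, 134870419 to 134875531, plus strand. The interval of Cdkn1b overlapped that of Ccnd3 in the control library and lay below it after HTL.

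Cdkn1a encodes p21, the classic p53 target that arrests cells after DNA damage. It had only 8 and 16 reads, 0.40 FPKM (0.17 to 0.79) and 0.92 FPKM (0.53 to 1.49), and these intervals overlap. The log2 ratio of 1.13 (-0.12 to 2.62) was past the fold cutoff but not past the test (adjusted p = 0.104, exact binomial test). With 8 reads in the control library, 27 reads after HTL would have been needed for a call. A smaller rise of Cdkn1a could not be called at this depth, nor could any fall, and the upper end of its interval is a fold of 6.14. With 5 reads added, the log2 ratio of Cdkn1a was 0.82, and 0.46 on the scale of FPKM + 1, both short of the cutoff. Trp53 itself had 3 and 7 reads (0.16 and 0.43 FPKM; log2 ratio 1.27, -0.72 to 3.99). Cdkn1c encodes p57, an imprinted inhibitor that is active in differentiating cells. It had 8 and 5 reads, with a log2 ratio of -0.46 (-2.45 to 1.30) and an adjusted p of 0.676 by the exact binomial test. No count after HTL, not even 0, would have given a lower call for Cdkn1c.

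Relative to Cdkn1b, the reads of Cdkn1a changed by 1.39 on the log2 scale (0.071 to 2.84), which rests on the 8 and 16 reads above. The changes of Cdkn1a relative to Cdkn1c, 1.63 (-0.63 to 4.05), and of Cdkn1b relative to Cdkn1c, 0.28 (-1.52 to 2.25), had intervals that hold 0. Cdkn1b was 97.07% of the FPKM of the family in the control and 94.98% after HTL. Cdkn1a (gene 12575) lies on chromosome 17, 29227924 to 29237667, plus strand, and Cdkn1c (gene 12577) on chromosome 7, 150644255 to 150646955, minus strand.

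The INK4 inhibitor Cdkn2d was the only gene of the 10 that was called. It encodes p19 (INK4d), which binds CDK4 and CDK6 and is expressed in the developing nervous system. Cdkn2d had 52 reads in the control library and 122 after HTL, that is 4 FPKM (2.99 to 5.25) and 10.7 FPKM (8.84 to 12.7), with no overlap. Its log2 ratio was 1.41 (0.94 to 1.91), a fold of 2.65 (1.91 to 3.77), and its adjusted p was 3.13e-09 in the exact binomial test. Relative to the median gene the log2 ratio was 1.54. The gene (12581) lies on chromosome 9, 21092907 to 21095653, minus strand, and its exons overlap no other annotated gene. It stood at percentile 97.9 of the log2 ratios of all genes tested. The interval reaches below the fold cutoff of 1 on the log2 scale. With 52 control reads, 92 reads after HTL would have been enough for a call. The call also depended on the error assumed between cultures, which single libraries cannot measure. In edgeR's exact test, the adjusted p of Cdkn2d was 0.0001 when a coefficient of variation of 0.1 was assumed, 0.0656 with 0.2 and 1.0 with 0.4.

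Cdkn2c encodes p18 (INK4c), an inhibitor of CDK6 and CDK4. It is gene 12580, on chromosome 4, 109333481 to 109339794, minus strand. It had 7 and 2 reads (0.33 and 0.11 FPKM), too few to be tested. Its log2 ratio was -1.42 (-4.92 to 0.77). The reads of Cdkn2c relative to Cdkn2d changed by -3.02 on the log2 scale (-6.37 to -0.56), an interval that leaves out 0 but rests on the 7 and 2 reads of Cdkn2c. In total, 5 of the 8 pairs had an interval without 0. Several pairs share a gene, the intervals are not adjusted for the number of pairs, and the share among pairs of all genes was not computed. The count is therefore not read as a result about these families.

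**Figure D3:**
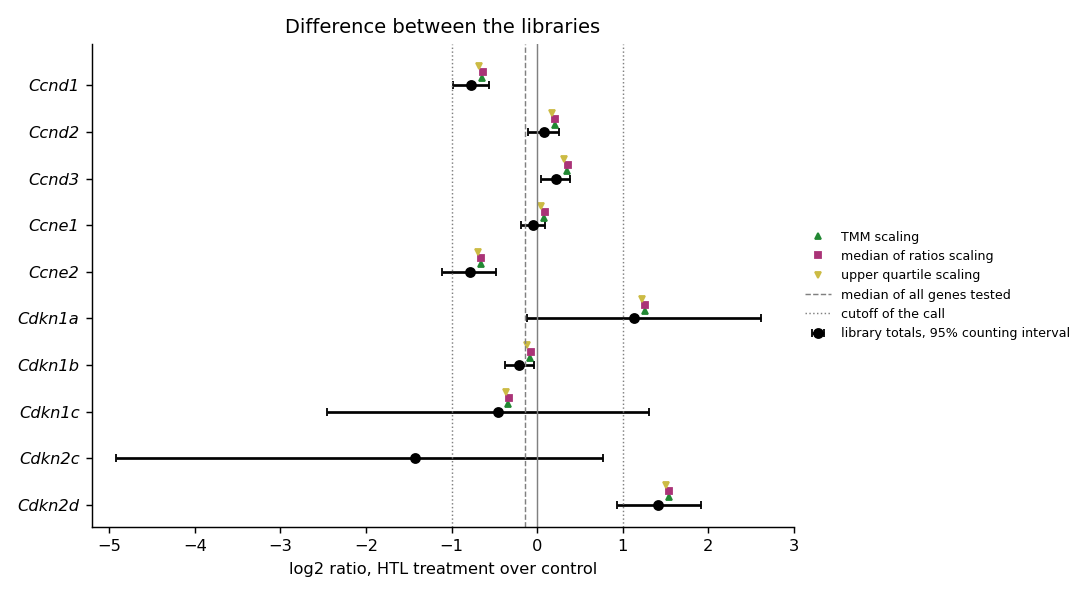
Log2 ratio of HTL treatment over control for each gene with its 95% counting interval (black, library totals) and under 3 other scalings (coloured), which have no value for Cdkn2c because it was not tested. Cdkn2d sat at 1.41 and Ccnd1 and Ccne2 at -0.77 and -0.79, while the intervals of Ccnd2 and Ccne1 include 0 and those of Cdkn1a, Cdkn1c and Cdkn2c are wide.

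Summed over families, the 5 cyclin genes summed to 101 FPKM in the control library and 95.6 after HTL, and the 5 inhibitor genes to 31.6 and 34.9 FPKM. The log2 ratio of the summed cyclin reads was -0.13 (-0.21 to -0.050), which is near the median of all genes, and it lay between -0.037 and 0.0063 under the other scalings. That of the inhibitors was 0.0017 (-0.15 to 0.16), and 0.095 to 0.14 under the other scalings. The INK4 pair was at 1.25 (0.80 to 1.73), carried by Cdkn2d.

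**Figure D4:**
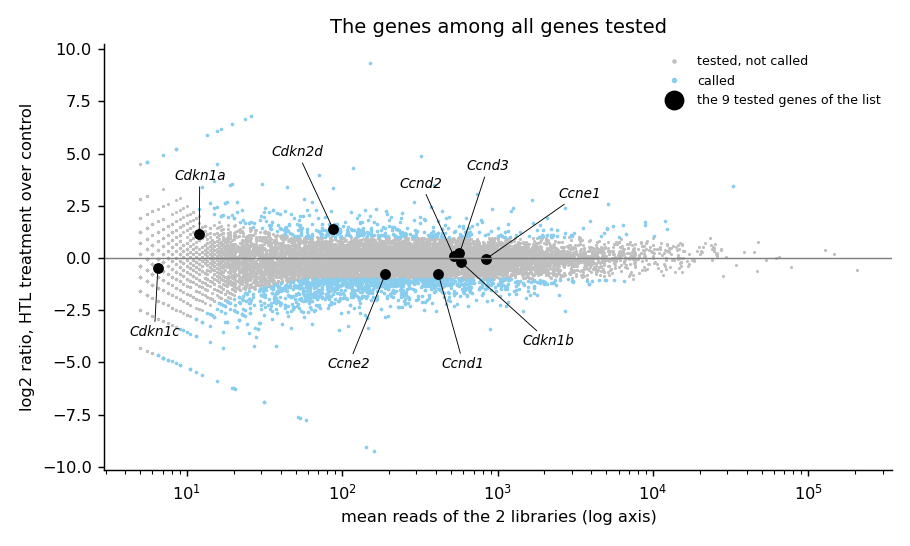
Log2 ratio of HTL treatment over control against the mean reads of both libraries (log axis) for all 13442 genes tested, with called genes in light blue and the 9 tested genes of the list in black. Cdkn2d lies among the called genes at 1.41, Cdkn1a at 1.13 lies among genes with few reads that were not called, and Ccnd1 and Ccne2 lie just inside the cutoff of -1.

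Upstream sequence is shown for Cdkn2d, as the called gene, and for Ccne1, as the gene with the highest level, whose interval holds 0. Of the 10 genes, 6 matched the RefSeq promoter table (GRCm38.p6), with 9 promoters in all. Ccnd1, Ccnd2, Ccne2 and Cdkn1c had no entry. The 250 bases before each start are printed 5′ to 3′ with the letters of the GC box, the binding motif of Sp1, in capitals. The Cdkn2d stretch is chr9:21291210-21291459 and the Ccne1 stretch is chr7:38107491-38107740, both on the minus strand.
Cdkn2d: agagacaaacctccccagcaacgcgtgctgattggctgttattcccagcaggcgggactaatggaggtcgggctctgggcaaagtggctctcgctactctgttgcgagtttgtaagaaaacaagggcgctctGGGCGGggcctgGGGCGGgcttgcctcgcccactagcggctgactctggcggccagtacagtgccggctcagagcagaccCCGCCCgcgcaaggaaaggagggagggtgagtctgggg
Ccne1: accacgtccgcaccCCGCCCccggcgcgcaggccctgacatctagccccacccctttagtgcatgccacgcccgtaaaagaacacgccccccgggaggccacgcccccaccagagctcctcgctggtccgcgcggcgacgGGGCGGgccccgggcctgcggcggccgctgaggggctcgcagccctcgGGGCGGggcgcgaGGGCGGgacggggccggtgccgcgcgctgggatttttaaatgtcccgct
The Cdkn2d stretch holds 3 GC boxes and the Ccne1 stretch 4, so the motif was in both the called gene and the gene near 0. Over windows of 300 bases (250 before and 50 after the start, both strands), GGGCGG was found in 7 of the 9 promoters, from all 6 matched genes, beside 35.7% of all 32851 promoters. The E2F words TTTCCCGC, TTTCGCGC, TTTGCCGC and TTTGGCGC were in 0 of the 9, beside 2.26% of all promoters. The CRE TGACGTCA (1.79% of all) and the composite C/EBP-ATF word TGATGNAA (3.97% of all) were in 0 of the 9 as well. The E box CACGTG was in 1 of the 9, from Cdkn2c (7.15% of all), and CCAAT was in 4, those of Ccnd3, Cdkn1b, Cdkn2c and Cdkn2d (37.4% of all). These are matches of letters in short windows, and a missing word says nothing about a factor.

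The genes around the cyclins and inhibitors were taken from 9 lists with 128 genes. Of 124 tested, 6 were called higher and 7 lower, 10.5% of them, beside the 10.8% of all genes. With TMM or the median of ratios these became 8 higher and 6 lower. The shifts by these 2 scalings take Ccnl1 and Foxo3, at 0.91 and 0.89 with library totals, past the cutoff of 1. The median log2 ratio of the 124 genes was -0.12. Of the 10 cyclin and inhibitor genes themselves, 7 carried the annotation for mitotic cell cycle phase transition, a term of 119 genes in the table.

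Of the 8 catalytic partners and activators, 1 was called, beside 10.8% of all genes. Cdk6, the partner of D cyclins that is prominent in progenitors, fell from 1855 to 496 reads (15.3 to 4.65 FPKM), a log2 ratio of -1.72 (-1.86 to -1.57; adjusted p = 8.15e-146, exact binomial test). The Cdk6 reads were not whole numbers before rounding, and neither were those of E2f1 and Cenpf named below, as happens where RSEM divides reads between genes. Cdk4, the other partner of the D cyclins, stood at 296 and 291 FPKM (4144 and 3583 reads), a log2 ratio of -0.024 (-0.089 to 0.040), which is above 0 under each other scaling. For Cdk2, the partner of the E cyclins, 526 and 496 reads gave 0.10 (-0.079 to 0.28). The median of this list was -0.11.

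Of the 15 other cyclins tested, 1 was called, again beside 10.8% of all genes. Ccnj, a cyclin little studied in mammals, fell from 843 to 291 reads, a log2 ratio of -1.35 (-1.55 to -1.16). A further 6 passed the adjusted p in the lower direction and 1, Ccnl1, in the higher, beside 38.6% of all genes tested. With library totals, all of these were short of the fold cutoff. The median of this list was -0.16, or -0.027 relative to the median gene. Of the other inhibitors, Cdkn2a, whose locus encodes p16 and ARF, showed 76 and 91 reads (log2 ratio 0.44, -0.010 to 0.90). Cdkn2b, which encodes p15, had 8 and 4 reads, and Cdkn3, a phosphatase that acts on CDK2, had 88 and 79. None of the 3 passed the test.

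Downstream of the D cyclins, 1 of 13 genes of the pocket protein and E2F list was called, which is also near the 10.8% of all genes. E2f1, the activator that the retinoblastoma protein holds in check, fell from 293 to 108 reads (10.36 to 4.33 FPKM), a log2 ratio of -1.25 (-1.59 to -0.93). The list had a median of -0.26, or -0.13 relative to the median gene. None of the 19 E2F targets of S phase was called. By the adjusted p of the exact binomial test alone, 6 of the 19 were higher and 5 lower, beside 38.6% of all genes in either direction, and their median was 0.021, or 0.16 relative to the median gene. Among 13 genes of the G2 and M phases, 9 passed the adjusted p in the lower direction and 2 in the higher, beside the same 38.6% of all genes, with a median of -0.42, or -0.28 relative to the median gene. Only Cenpf, a kinetochore protein, was called there, falling from 4306 to 1779 reads (log2 ratio -1.09, -1.17 to -1.01), and the shift by each other scaling leaves it short of the cutoff of -1. In bulk RNA, fewer cells in a phase and less RNA per cell cannot be told apart. None of the 19 genes for the turnover of cyclins and inhibitors was called. Of these, 3 passed the adjusted p in the higher direction and 7 in the lower, again beside 38.6% of all genes, with a median of -0.17, or -0.030 relative to the median gene.

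Upstream factors moved both ways, with 3 of 19 called higher and 2 lower, beside 2.81% and 7.98% of all genes, and a median of 0.28, or 0.41 relative to the median gene. Ddit3, the stress factor CHOP, rose from 98 to 385 reads, a log2 ratio of 2.15 (1.84 to 2.49). The other 2 called higher were Atf4, the factor upstream of CHOP in the integrated stress response, with 3047 and 7124 reads, and Klf4, an activator of Cdkn1a, with 19 and 51. Myc, an activator of Ccnd2 and a repressor of Cdkn1a, fell from 538 to 111 reads, a log2 ratio of -2.09 (-2.40 to -1.79). The other gene called lower was Lef1, a Wnt effector that acts on Ccnd1 (323 and 85 reads). Of 15 p53 targets tested, other than Cdkn1a, 3 were called higher and 1 lower, beside the same shares of all genes, with a median of 0.098, or 0.23 relative to the median gene. Gadd45a, a growth arrest gene that stress can also induce without p53, rose from 19 to 109 reads, a log2 ratio of 2.67 (1.99 to 3.49). Sesn2 (447 and 2063 reads) and Plk2 (9 and 31 reads) were the other p53 targets called higher. Pidd1, an adaptor of the caspase-2 complex, fell from 113 to 27 reads, a log2 ratio of -1.86 (-2.54 to -1.26).

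**Figure D5:**
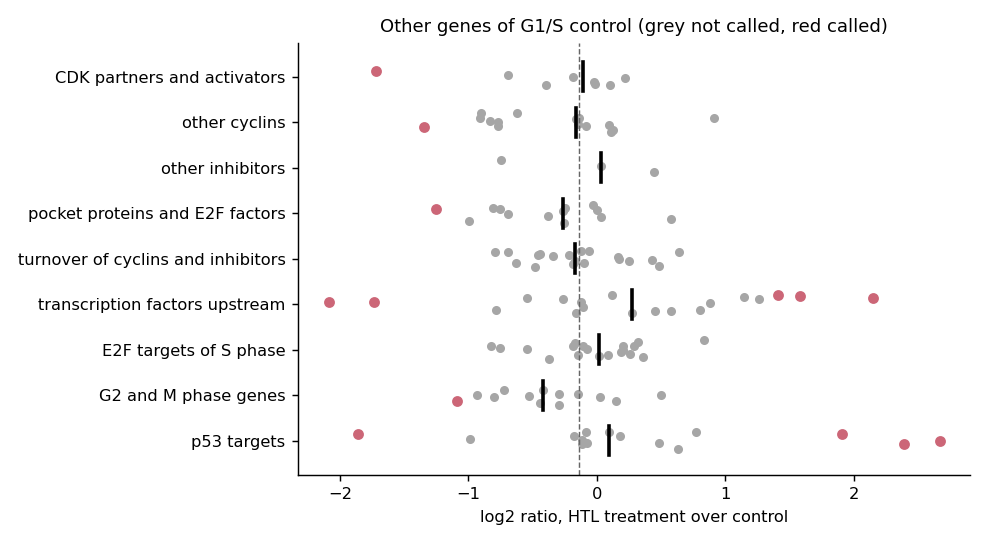
Log2 ratio of HTL treatment over control for the 124 tested genes of 9 lists around the cyclins and inhibitors, 1 point a gene, red where called, with the list median as a black bar and the median of all genes tested (-0.14) as a dashed line. Medians ran from -0.42 for the G2 and M phase genes to 0.28 for the upstream transcription factors, and vertical spread within a list carries no value.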

How the data were processed

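Total RNA of 1 control and 1 HTL treatment culture was sequenced, and groups were taken from the sample titles. Per the labels, the libraries came from an Illumina TruSeq kit and BGISEQ protocols, and the build was mm9. The authors deposited estimated counts per gene, from RSEM by the study's methods, which are not normalized, and FPKM values, which the authors scaled to transcript length and library size (lowest value 0.01). The mapper, versions, annotation release and use of strand are not given in the sources used here. The log2 ratios, p-values and FDR of the authors were not used.

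Estimated counts were rounded to whole numbers, giving 10350665 control and 9102076 HTL treatment reads. All 13442 genes with at least 10 reads over both libraries entered a two-sided exact binomial test against the library totals, with Benjamini-Hochberg adjustment (SciPy 1.17.1). Cutoffs followed the study's methods, and 0.5 read was added before log2 ratios were taken. Such a test compares 2 libraries, not conditions. Without replicates, neither edgeR's quasi-likelihood model nor DESeq2 could be fitted. Intervals of log2 ratios were exact Clopper-Pearson, those of FPKM exact Poisson, and those of ratios between genes exact conditional, each at 95%. Scalings came from edgeR 4.0.16 and DESeq2 1.42.0. The test was checked on simulated counts.

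The genes and lists were chosen with earlier results of these data known. All 10 genes, Trp53, the other inhibitors and, from each other list, markers included, the called gene with the highest and the lowest log2 ratio (at least 20 reads) were named. Cdk2, Cdk4, Ccnl1, Foxo3, Atf4, Klf4, Lef1, Sesn2, Plk2, the other marker genes and the overlapping genes were named after values had been seen. Gene positions came from GENCODE on NCBIM37.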

Additional observations from a re-analysis of the deposited data

How the results depend on the processing

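No paired analysis was possible because the study has a single library for either condition. Leaving one out would leave no comparison. All alternatives were planned. The count of 1 called gene among the 9 moved in 4 of 14 alternatives. In edgeR's exact test it was 0 when a coefficient of variation of 0.2 or 0.4 was assumed, and with the binomial test it was 3 without the fold cutoff or with a fold of at least 1.5. The 13 called genes of the pathway lists became 4 and 0 at those coefficients of variation, and 66 and 37 at those fold cutoffs. Under the other alternatives that count ran from 11 to 16. Cdkn2d lost its call in these first 2 settings alone, at a log2 ratio of 1.41, and ran from 1.22 (FPKM + 1) to 1.54 (median of ratios) in all. The log2 ratio of Ccne1 changed sign, to 0.079 (TMM), 0.086 (median of ratios) and 0.043 (upper quartile), since those scalings raise all values by more than its distance from 0. Ccnd1 ran from -0.77 to -0.60 and Ccne2 from -0.79 to -0.62, both nearest 0 when the median of genes of similar transcript length was subtracted. Neither passed an adjusted p of 0.001 in edgeR's exact test at 0.1 or above (0.00569 for Ccnd1 and 0.0128 for Ccne2 at 0.1). Depth limits Cdkn1a, Cdkn1c and Cdkn2c, which had 8, 8 and 7 control reads and would have needed 27, 27 and 26 reads after HTL to be called higher.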
